A study of Mus musculus with 20 samples.

Results

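Interferon-stimulated effector genes, the antiviral and immune genes that interferons switch on, were followed across 10 H3K27ac peak lists of RAW264.7 cells, a mouse macrophage-like line that RANKL can turn into osteoclasts. Of 46 listed members, 44 were found among the 21887 protein-coding genes of the GRCm38 annotation. The remaining pair, Mx1 and Mx2, is annotated there as transcribed pseudogenes. The study asked how the cells' active chromatin responds to RANKL, the cytokine that drives osteoclast formation, and to I-BET, an inhibitor of the BET bromodomain proteins that read acetylated histones. Groups were untreated cells (3 lists), cells given RANKL at 50 ng/ml (3 lists), cells given RANKL at 50 ng/ml with I-BET at 500 nM (3 lists) and cells given I-BET at 500 nM without RANKL (1 list, replicate 3). Treatment lasted 4 h. The labels name RAW264.7, a monocyte-derived line, as the cell line and bone marrow as the source. All lists come from that 1 line, and no label says that replicates were separate cultures, so the spread between lists may be technical.

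H3K27ac, acetylation of lysine 27 on histone H3, marks active promoters and enhancers. Type I interferons bind the IFNAR receptor, whose kinases activate transcription factors that bind a response element in the promoters of interferon-stimulated genes. In cells of the osteoclast lineage, RANKL signalling is known to induce interferon-beta, which restrains osteoclast formation. The members encode viral RNA sensors, RNA-degrading and translation-blocking enzymes, the ubiquitin-like ISG15 system, guanylate-binding and immunity-related GTPases, membrane restriction factors and a chemokine.

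Promoters of 6 members are shown because they carry the patterns described below. A search for the core of the interferon-stimulated response element looked for GAAA, any 2 bases and a second GAAA, on either strand, and overlapping matches were counted. Matches are in capitals. Sequences are from RefSeq (GRCm38.p6), 5′ to 3′ on the gene's strand, from 250 bases before to 50 bases after an annotated start. Cmpk2 (chr12:26468965-26469264, + strand), Isg20 (chr7:78913515-78913814, + strand) and Sp100 (chr1:85649738-85650037, + strand) gained a peak here with RANKL and hold no match. Isg15 (chr4:156200769-156201068, - strand) also gained a peak and holds 3 overlapping matches. Ifit1 (chr19:34640639-34640938, + strand) holds 2 matches and had a peak in 1 list. Gbp2 (chr3:142620413-142620712, + strand) holds 1 match and had a peak only in RANKL list 2.
Cmpk2: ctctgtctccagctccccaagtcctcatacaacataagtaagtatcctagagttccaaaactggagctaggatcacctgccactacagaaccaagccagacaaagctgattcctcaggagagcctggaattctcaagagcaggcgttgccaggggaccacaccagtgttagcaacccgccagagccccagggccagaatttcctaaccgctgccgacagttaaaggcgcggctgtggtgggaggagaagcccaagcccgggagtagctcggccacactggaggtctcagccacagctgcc
Isg20: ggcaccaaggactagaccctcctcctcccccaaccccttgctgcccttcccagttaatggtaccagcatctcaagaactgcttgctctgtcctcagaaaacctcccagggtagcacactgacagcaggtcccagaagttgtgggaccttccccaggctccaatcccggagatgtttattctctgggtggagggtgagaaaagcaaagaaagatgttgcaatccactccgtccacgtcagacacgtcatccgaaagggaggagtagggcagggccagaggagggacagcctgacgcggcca
Sp100: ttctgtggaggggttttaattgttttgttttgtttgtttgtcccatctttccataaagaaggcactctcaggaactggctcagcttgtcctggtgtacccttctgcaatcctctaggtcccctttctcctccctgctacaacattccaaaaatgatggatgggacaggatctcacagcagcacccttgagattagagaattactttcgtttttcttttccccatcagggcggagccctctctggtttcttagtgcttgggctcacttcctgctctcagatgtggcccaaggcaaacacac
Isg15: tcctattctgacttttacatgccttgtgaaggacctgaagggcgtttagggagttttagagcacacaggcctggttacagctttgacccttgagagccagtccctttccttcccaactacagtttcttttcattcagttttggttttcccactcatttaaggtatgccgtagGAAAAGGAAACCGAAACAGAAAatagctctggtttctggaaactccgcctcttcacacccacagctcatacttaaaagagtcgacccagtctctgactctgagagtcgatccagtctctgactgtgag
Ifit1: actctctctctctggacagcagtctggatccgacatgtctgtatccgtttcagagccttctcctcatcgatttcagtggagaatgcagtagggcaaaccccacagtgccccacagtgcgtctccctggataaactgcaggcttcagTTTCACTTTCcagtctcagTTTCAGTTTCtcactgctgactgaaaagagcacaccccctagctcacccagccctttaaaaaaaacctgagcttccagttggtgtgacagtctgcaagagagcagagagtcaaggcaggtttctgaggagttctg
Gbp2: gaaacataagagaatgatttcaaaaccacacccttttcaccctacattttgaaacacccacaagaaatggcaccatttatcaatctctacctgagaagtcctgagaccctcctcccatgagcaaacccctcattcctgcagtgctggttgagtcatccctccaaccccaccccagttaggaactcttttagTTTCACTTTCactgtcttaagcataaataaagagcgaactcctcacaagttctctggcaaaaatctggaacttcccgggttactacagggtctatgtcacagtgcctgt

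Such matches were common among the members. Of the 44 members, 36 had a promoter in the RefSeq table, and 19 of these 36 (52.8%) held at least 1 match, against 689 of 17492 genes (3.94%). The members' promoters were also poor in CpG dinucleotides, with a median of 6.5 per promoter against 15 over all genes. For a gene with several promoters, the highest count was taken. A match was present in 7 of 15 members (46.7%) with a gene-end peak in all 6 untreated, RANKL and RANKL+I-BET lists numbered 1 and 3. It was present in 7 of 15 members held in some of those lists and in 5 of 6 (83.3%) held in none. The members held in none were Gbp2, Gbp3, Gbp5, Gbp7, Oasl2 and Rsad2. Their median CpG count was 4, against 9 for the members held in all 6 lists. Among promoters with 0 to 4 CpGs, 4 of 12 members had a gene-end peak in both untreated lists 1 and 3, against 4.43% of 4811 genes. The same was true of 5 of 13 members with 5 to 9 CpGs, against 15.4% of 2273 genes. Of members with 10 to 19 CpGs, 5 of 9 were held, against 38.1% of 3605 genes, and of those with 20 to 67 CpGs 1 of 2, against 50.1% of 6803 genes. These shares describe sequence and occupancy side by side and carry no test.

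The lists differed greatly in length, in the order replicate 1, 2 and 3. Untreated lists held 16364, 9893 and 13677 peaks, RANKL lists 17794, 141905 and 16917, RANKL+I-BET lists 17643, 6041 and 13613, and the I-BET list 13368. The genome covered was 184.6 Mb in RANKL list 2, 3.44 Mb in RANKL+I-BET list 2 and 7.79 Mb in untreated list 2, against 16.1 to 25.9 Mb in the other 7. RANKL list 2 had peaks at the ends of 11 of 14 lymphocyte markers, 8 of 14 fibroblast and osteoblast markers and 12 of 14 markers of tissues not in the culture. In the other 9 lists these counts were 0 or 1, 0 and 0. Macrophage markers were held at 10 of 10 in RANKL list 2 and at 5 to 10 of 10 elsewhere, the lowest in RANKL+I-BET list 2. The part of these differences in the results below was not tested, and the comparisons of gene-end peaks, covered length and the gene-level test are given with and without the lists numbered 2. Sequencing depth is unknown, since the lists hold no read counts.

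In most lists the members held acetylated gene ends more often than protein-coding genes at large. A gene-end peak is one lying at most 1 kb from either end of a gene. Untreated lists 1, 2 and 3 held such a peak at 20, 10 and 28 members (45.5%, 22.7% and 63.6%), against 32.5%, 27.03% and 37.7% of all genes. RANKL lists held one at 32, 40 and 34 members (72.7%, 90.9% and 77.3%), against 41.5%, 74.0% and 41.8% of genes. RANKL+I-BET lists held one at 29, 5 and 28 members (65.9%, 11.4% and 63.6%), against 41.7%, 17.3% and 36.7% of genes. The I-BET list held one at 28 members (63.6%), against 34.8% of genes. The share of members was above that of all genes in every list except untreated 2 and RANKL+I-BET 2. The group means were 19.3 ± 9.02 members untreated, 35.3 ± 4.16 with RANKL and 20.7 ± 13.6 with RANKL+I-BET (SD, n = 3 lists each). Each RANKL list held more members than any untreated or RANKL+I-BET list. This order of member counts did not outlast a common list length. The lists numbered 1 and 3 were reduced to their best peaks by −log10 p until each covered 16.1 Mb. This is the full length of untreated list 1, which was therefore uncut, while RANKL lists 1 and 3 were cut from 23.7 and 25.9 Mb. Then 20 and 20 members were held untreated, 17 and 20 with RANKL, 16 and 24 with RANKL+I-BET and 20 with I-BET. The groups overlapped. The shares of all genes were 32.45% and 29.51% untreated, 26.92% and 24.96% with RANKL, 27.94% and 26.99% with RANKL+I-BET and 26.92% with I-BET. At this length both RANKL lists held fewer genes at large than either untreated list, whereas as deposited they held more. The part of the unequal cut in this reversal was not tested. The members' share, 36.4% to 54.5%, was above that of all genes in each of the reduced lists.

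**Figure D1:**
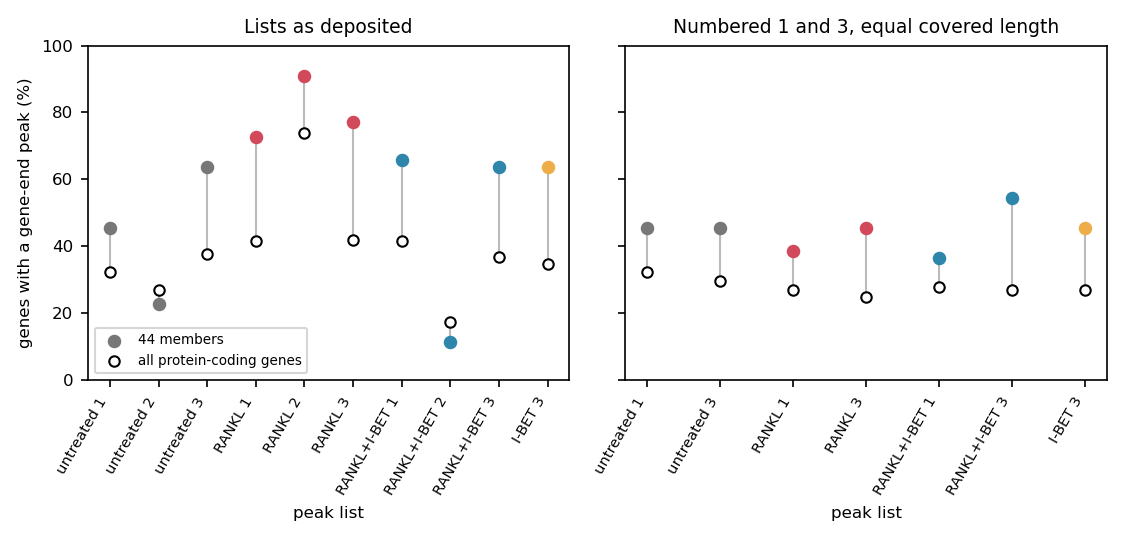
Share of genes with a gene-end H3K27ac peak, in percent, in each peak list, for the 44 members (filled points, coloured by group) and all protein-coding genes (open points). As deposited the RANKL lists hold 72.7% to 90.9% of members, and at a covered length of 16.1 Mb the members of RANKL lists 1 and 3 lie within the range of the untreated and RANKL+I-BET lists.

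Many members were marked in untreated cells, where 28 of 44 had a gene-end peak in at least 1 list. A gene-end peak was present in all 6 lists numbered 1 and 3 for 20 of the 44 members, and in all 9 lists of the 3 groups for 2, the GTPase Irgm1 and the ADP-ribosyltransferase Parp14. Outside RANKL list 2, 36 members had a gene-end peak in at least 1 list. The other 8 were Rsad2, Oasl2, Rtp4, Gbp2, Gbp3, Gbp5, Gbp7 and Zbp1. At 6 of the 36 members the peaks also lay at another gene's end, as with Dhx58 and Kat2a or Parp9 and Dtx3l, and such a peak cannot be given to one gene. The highest fold enrichment among a member's gene-end peaks, the authors' value, was moderate for its list. Its median percentile among all peaks of the list was 61.3, 37.1 and 53.7 in untreated lists 1 to 3, 40.3, 49.8 and 55.7 in the RANKL lists and 40.9, 18.2 and 56.6 in the RANKL+I-BET lists. The same median over all genes with a gene-end peak was 50.8 to 60.8 across the 10 lists. In untreated list 1 and in lists 3 of all 3 groups the members' median exceeded that of genes, and it was below it in the other lists.

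**Figure D2:**
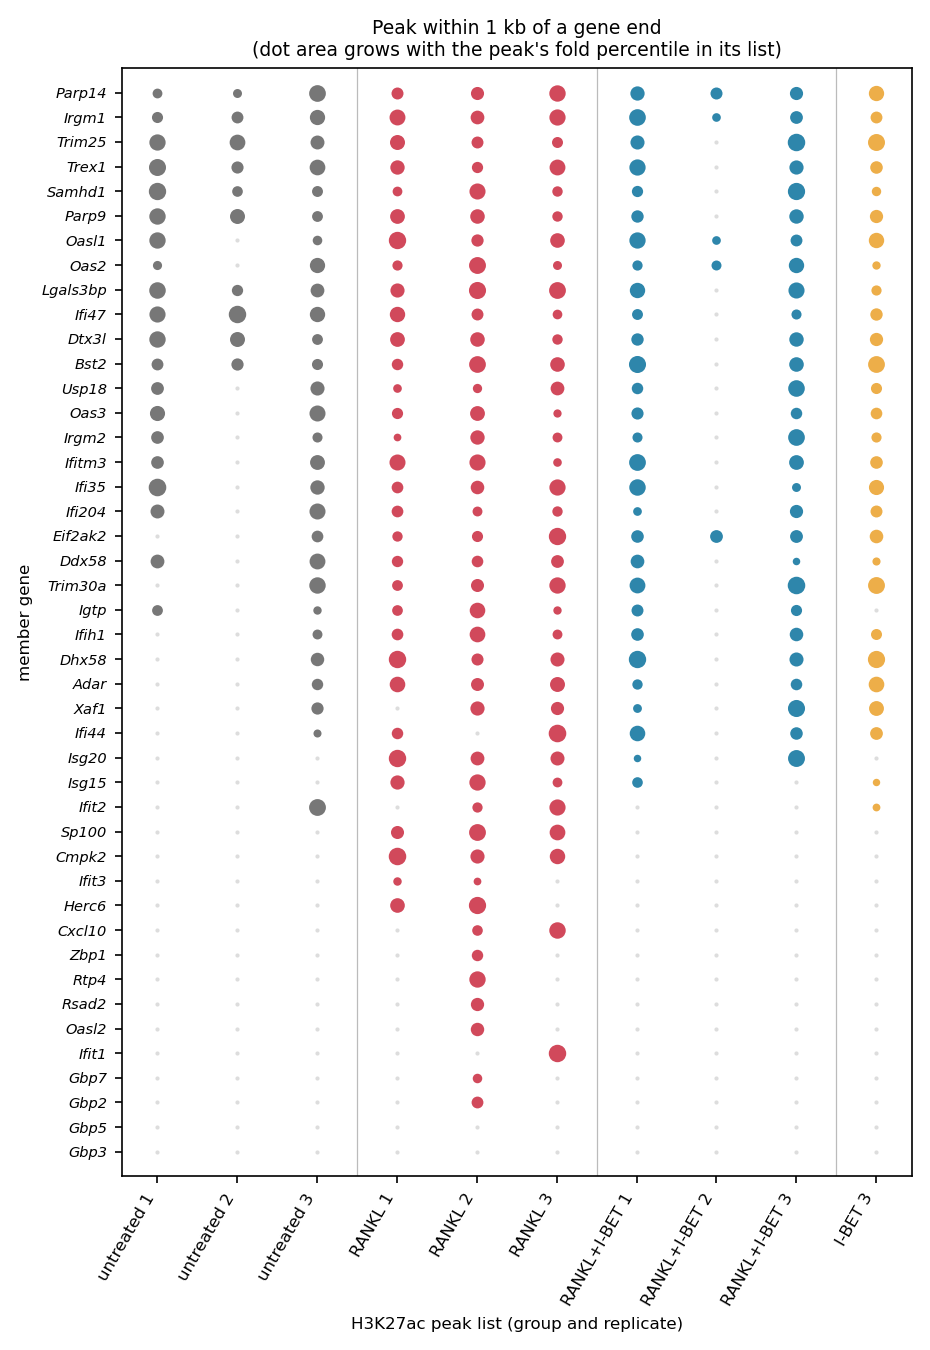
Gene-end H3K27ac peaks of the 44 members in the 10 lists, ordered by the number of lists that hold one. Coloured dots mark a gene-end peak, with area growing with the percentile of the peak's fold enrichment in its own list, and grey dots mark none. Irgm1 and Parp14 are held in all lists, and Cmpk2 and Sp100 only in the 3 RANKL lists.

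A gene-end peak was gained with RANKL at 4 members, meaning that all 3 RANKL lists held a peak and 0 of 3 untreated lists did. They were Cmpk2, which encodes a kinase of pyrimidine nucleotides in mitochondria, Isg15, whose product is attached to proteins like ubiquitin, Isg20, an RNA exonuclease, and Sp100, a nuclear body protein. These are 9.09% of the 44 members, against 1.49% of all genes. No member lost its peak, and 0.0% of genes did. Without the lists numbered 2 the same 4 members were gained, against 1.80% of genes. When 2 of 3 RANKL lists sufficed, Ifit3, Herc6 and Cxcl10 joined them, 7 of 44 members against 3.31% of genes. At one covered length, lists 1 and 3 gave Cmpk2, Isg20, Sp100 and Ifi44 as gained (1.14% of genes) and Oas2, Oas3, Irgm2 and Ifi204 as lost (3.16% of genes). With every list reduced to the length of the shortest, 0 members and 0.0183% of genes were gained. That 0 was fixed in advance. RANKL list 2 then held a gene-end peak at 0 members and 1.74% of genes, and a gain needs all 3 RANKL lists. With only peaks of −log10 q of at least 5, 0 members were gained but 1.58% of genes. Isg20 dropped out when peaks at another gene's end were left out (3 members, 1.16% of genes), and Isg15 gave way to Herc6 at a distance of 5 kb (4 members, 1.41% of genes). For a single gene, 3 lists against 3 cannot give an exact two-sided permutation p below 0.1.

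With RANKL and I-BET together, Cmpk2 and Sp100 had a gene-end peak in 0 of 3 lists against 3 of 3 with RANKL. This loss covered 2 of 44 members and 0.553% of all genes, and the same 2 were lost without the lists numbered 2 (0.567% of genes). No member and 0.0% of genes showed the reverse. When 2 of 3 RANKL lists sufficed, Ifit2, Ifit3, Herc6 and Cxcl10 were lost too, 6 of 44 members against 1.90% of genes. At one covered length, lists 1 and 3 gave Cmpk2, Sp100 and Adar (1.59% of genes). No member was lost with every list reduced to the length of the shortest (0.0137% of genes) or with only peaks of −log10 q of at least 5 (1.01% of genes). At the shortest length none could be, since RANKL list 2 held 0 members there. Between RANKL+I-BET and untreated cells 0 members were gained or lost, against 0.0366% and 0.0137% of genes. Isg20 was gained without the lists numbered 2 (0.731% of genes), and Ifi44 took its place at one covered length (0.969% of genes). The comparisons share the RANKL or the untreated lists, so a gain in one and a loss in another are not independent.

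Cmpk2 (chr12:26469117-26479837) was the plainest case. The length covered by peaks from 25 kb before to 25 kb after the gene was 0 kb in all 3 untreated lists, 0.602, 1.96 and 0.861 kb in the RANKL lists, 0 kb in all 3 RANKL+I-BET lists and 0 kb in the I-BET list. The 3 RANKL lists were above 0, and the untreated, RANKL+I-BET and I-BET lists were all at 0. The 3 peaks were chr12:26468993-26469594, chr12:26469011-26470081 and chr12:26469265-26470125, with fold enrichments of 7.13, 2.06 and 3.09 and −log10 q of 13.4, 2.51 and 3.94. The first 2 cover the annotated start within the promoter printed above, and the last begins just downstream of it. In RANKL list 1 this peak ranked at percentile 97.8 of fold. Rsad2, the neighbouring gene for viperin, an enzyme that makes a chain-terminating nucleotide, has a window that overlaps that of Cmpk2 and the same covered lengths. Its own ends held a peak only in RANKL list 2.

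Sp100 (chr1:85649948-85709998) had peaks in its window in every list, but at its start only with RANKL. Its covered length was 1.64, 0.690 and 0.990 kb in the untreated lists, 2.71, 14.3 and 1.86 kb in the RANKL lists, 1.66, 0.327 and 1.48 kb in the RANKL+I-BET lists and 1.15 kb in the I-BET list. Each RANKL list lay above the others, although RANKL list 3, at 1.86 kb, was close to RANKL+I-BET list 1, at 1.66 kb, and untreated list 1, at 1.64 kb. The start peaks, chr1:85649670-85650640, chr1:85649193-85652112 and chr1:85649569-85650393, had fold enrichments of 3.01, 5.37 and 3.22. All 3 cover the annotated start.

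Isg20 (chr7:78913396-78920396), which degrades single-stranded RNA, kept its start peak in part with I-BET. Its covered length was 0.977, 0.970 and 0.727 kb in the untreated lists, 1.55, 18.5 and 3.77 kb in the RANKL lists, 1.49, 0.277 and 1.57 kb in the RANKL+I-BET lists and 0.827 kb in the I-BET list. The RANKL lists were above all untreated lists, while RANKL+I-BET lists 1 and 3 came up to RANKL list 1. Start peaks had fold enrichments of 6.39, 1.98 and 2.66 with RANKL and of 2.19 and 3.71 in RANKL+I-BET lists 1 and 3. The last of these ranked at percentile 89.9 of its list, and the peak of RANKL+I-BET list 1 at percentile 1.54. The I-BET list and all untreated lists held no peak there. In RANKL list 2 the peak is wide and also reaches the end of the neighbouring gene Aen.

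Isg15 (chr4:156199424-156200818) is the modifier that USP18 removes and HERC6 attaches. Its covered length was 0, 0 and 0.652 kb in the untreated lists, 0.862, 24.2 and 1.84 kb in the RANKL lists, 0.424, 0 and 0.345 kb in the RANKL+I-BET lists and 0.697 kb in the I-BET list. RANKL values lay above all others, RANKL list 1 by a small margin over the I-BET list. The RANKL peaks nearest the start differed in place. In list 1 the peak chr4:156200827-156201089 lies just upstream, in list 2 chr4:156199668-156200814 lies within the gene and in list 3 chr4:156200590-156201537 spans the start, with fold enrichments of 3.32, 1.87 and 1.99. RANKL+I-BET list 1 held a start peak of 2.88-fold and the I-BET list one of 1.57-fold, the latter at percentile 1.12 of its list. The 3 response element matches printed above lie inside each of these peaks except that of RANKL list 2.

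**Figure D3:**
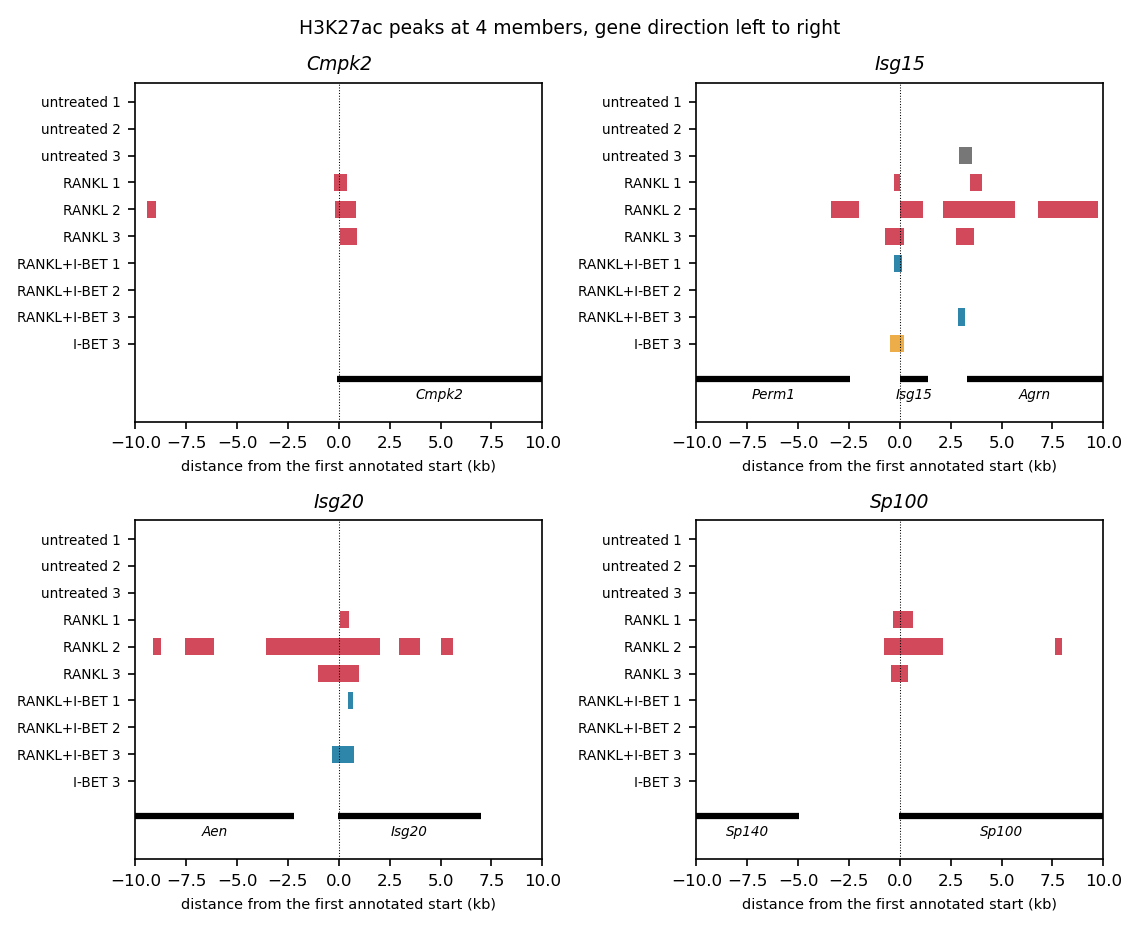
H3K27ac peaks (bars coloured by group) within 10 kb of the first annotated start of Cmpk2, Isg15, Isg20 and Sp100 in each list, with distance in kb along the gene's direction and gene bodies in black. At Cmpk2 and Sp100 a bar stands at the start in the 3 RANKL lists alone, at Isg20 also in RANKL+I-BET lists 1 and 3, and at Isg15 also in RANKL+I-BET list 1 and the I-BET list.

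The other genes of the ISG15 system were mixed. Usp18, the ISG15 protease, had 1.91, 0 and 1.90 kb in the untreated lists, 3.65, 9.30 and 2.81 kb in the RANKL lists, 2.63, 0 and 3.30 kb in the RANKL+I-BET lists and 3.18 kb in the I-BET list. Both RANKL lists numbered 1 and 3 exceeded the untreated lists, yet RANKL+I-BET list 3 exceeded RANKL list 3. Herc6, the ISG15 ligase, had 0 kb in all 3 untreated lists, 0.274, 3.23 and 0.287 kb in the RANKL lists, 0 kb in all 3 RANKL+I-BET lists and 0 kb in the I-BET list. It was covered in the RANKL lists only, and in list 3 its peak lay more than 1 kb from its ends. Trim25, a ubiquitin ligase of the RIG-I pathway, had a gene-end peak in every list except RANKL+I-BET 2.

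Sensors of viral RNA were marked in most lists. Ifih1, which encodes MDA5, had 0, 0 and 0.804 kb in the untreated lists, 0.862, 2.52 and 0.979 kb in the RANKL lists, 1.00, 0 and 0.477 kb in the RANKL+I-BET lists and 0.920 kb in the I-BET list. Ddx58, which encodes RIG-I, had 0.758, 0 and 0.754 kb in the untreated lists, 0.669, 11.0 and 1.04 kb in the RANKL lists, 0.219, 0 and 0.677 kb in the RANKL+I-BET lists and 0.931 kb in the I-BET list. Dhx58, which encodes LGP2, had 1.28, 0.294 and 4.09 kb in the untreated lists, 4.53, 36.9 and 5.47 kb in the RANKL lists, 3.71, 0 and 4.61 kb in the RANKL+I-BET lists and 4.78 kb in the I-BET list. Ifih1 and Dhx58 were held at their ends in untreated list 3 but not in untreated lists 1 and 2, and Ddx58 in untreated lists 1 and 3. All 3 were held in the RANKL lists and in RANKL+I-BET lists 1 and 3. Zbp1, a sensor of Z-form nucleic acid that triggers cell death, was at 0 kb in every list but RANKL 2, where 28.3 kb was covered.

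The IFIT genes, which block translation of viral RNA, are a family of neighbouring genes. Ifit1 had 0.688, 0 and 0 kb in the untreated lists, 0.312, 0.236 and 0.575 kb in the RANKL lists, 0 kb in all 3 RANKL+I-BET lists and 0.279 kb in the I-BET list. Its gene-end peak in RANKL list 3, chr19:34640587-34641161, had a fold of 5.19, at percentile 96.8, and spans the promoter stretch with 2 matches printed above. Ifit3 had 0 kb in all 3 untreated lists, 0.180, 1.78 and 0 kb in the RANKL lists, 0 kb in all 3 RANKL+I-BET lists and 0 kb in the I-BET list. Its start was held in RANKL lists 1 and 2, at folds of 2.20 and 1.30, and in no other list. Ifit2 had 1.81, 0.811 and 2.10 kb in the untreated lists, 2.00, 5.36 and 2.25 kb in the RANKL lists, 1.81, 0.253 and 1.86 kb in the RANKL+I-BET lists and 2.09 kb in the I-BET list. It was held at a gene end in untreated list 3, RANKL lists 2 and 3 and the I-BET list, and in no RANKL+I-BET list. The RANKL+I-BET lists were covered below all RANKL lists, while RANKL and untreated lists overlapped.

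Genes of the OAS family and of other antiviral enzymes were mostly marked in all groups. Oasl1, which restrains Irf7 translation, had 2.30, 0 and 3.17 kb in the untreated lists, 2.52, 24.0 and 4.87 kb in the RANKL lists, 3.81, 0.140 and 3.10 kb in the RANKL+I-BET lists and 4.38 kb in the I-BET list. Oasl2, its neighbour and a paralogue, had 2.01, 0 and 2.49 kb in the untreated lists, 2.30, 22.2 and 4.01 kb in the RANKL lists, 3.12, 0.140 and 2.60 kb in the RANKL+I-BET lists and 3.32 kb in the I-BET list, without a gene-end peak outside RANKL list 2. The windows of the pair overlap, so their values share peaks, and 16 members in all have a window that overlaps another member's. Eif2ak2, the kinase PKR, had 0, 0.240 and 1.92 kb in the untreated lists, 1.84, 8.78 and 2.42 kb in the RANKL lists, 1.92, 0.136 and 2.60 kb in the RANKL+I-BET lists and 0.685 kb in the I-BET list. Its gene ends were held in untreated list 3, all RANKL lists, all RANKL+I-BET lists and the I-BET list. Adar, an RNA deaminase, had 4.38, 1.28 and 4.51 kb in the untreated lists, 4.09, 33.6 and 5.75 kb in the RANKL lists, 4.86, 0.232 and 5.83 kb in the RANKL+I-BET lists and 5.55 kb in the I-BET list, with no gene-end peak in untreated lists 1 and 2. The synthetases Oas2 and Oas3, the nuclease Trex1 and also Samhd1 were held in untreated lists 1 and 3 and in every list numbered 1 or 3 after treatment.

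The GTPase families parted. Immunity-related GTPases, which act on pathogen vacuoles, were held in untreated cells. Irgm1 had 1.93, 0.644 and 3.23 kb in the untreated lists, 2.42, 13.4 and 5.59 kb in the RANKL lists, 2.70, 0.317 and 2.67 kb in the RANKL+I-BET lists and 2.88 kb in the I-BET list. Ifi47 was held in 8 of the 9 lists of the 3 groups, and Igtp and Irgm2 in 7. For Igtp and Irgm2, overlapping windows gave 2.00 and 2.02 kb in untreated lists 1 and 3, 1.38 and 1.99 kb in RANKL lists 1 and 3 and 0.946 and 1.26 kb in the matching RANKL+I-BET lists. These were the only 2 members whose RANKL lists 1 and 3 both lay below untreated lists 1 and 3, a pattern seen in 0.832% of genes. The 2 share these peaks and are not independent, and the margin of 1.99 kb against 2.00 kb is narrow. Guanylate-binding proteins, by contrast, were at 0 kb in every list but RANKL 2. There Gbp2 had 0.524 kb, Gbp3 2.04 kb, Gbp5 1.25 kb and Gbp7 3.02 kb, although all 4 promoters hold the element. A value of 0 means that no peak passed the authors' calling, not that acetylation is absent.

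Restriction factors at membranes were among the marked members. Bst2, which encodes tetherin, had 1.57, 0.309 and 2.00 kb in the untreated lists, 2.09, 23.4 and 2.76 kb in the RANKL lists, 2.69, 0 and 1.78 kb in the RANKL+I-BET lists and 1.51 kb in the I-BET list. Ifitm3, which blocks viral fusion, had 8.71 and 9.31 kb in untreated lists 1 and 3, 10.3 and 10.4 kb in RANKL lists 1 and 3 and 12.1 and 9.22 kb in RANKL+I-BET lists 1 and 3. The RANKL and RANKL+I-BET values overlap at both genes. Trim30a, which dampens Toll-like receptor signalling in mouse cells, had 0, 0 and 1.08 kb in the untreated lists, 2.95, 7.40 and 3.04 kb in the RANKL lists, 1.76, 0 and 0.545 kb in the RANKL+I-BET lists and 1.29 kb in the I-BET list. RANKL lists lay above untreated and RANKL+I-BET lists. Ifi44 had 0, 0 and 0.342 kb in the untreated lists, 1.30, 0.244 and 1.30 kb in the RANKL lists, 0.362, 0 and 1.16 kb in the RANKL+I-BET lists and 0.637 kb in the I-BET list. RANKL lists 1 and 3 were above untreated lists 1 and 3 and above the matching RANKL+I-BET lists, whereas RANKL list 2, the longest, was low.

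Cxcl10, the chemokine that draws T cells, had 3.41, 1.09 and 7.17 kb in the untreated lists, 3.66, 8.68 and 7.29 kb in the RANKL lists, 4.42, 0 and 3.77 kb in the RANKL+I-BET lists and 4.20 kb in the I-BET list. The groups overlapped, and a gene-end peak was called only in RANKL lists 2 and 3. In list 3 it lay at chr5:92349123-92349437 with a fold of 3.67, at percentile 84.1. The remaining members, Oas2, Oas3, Rtp4, Xaf1, Ifi35, Ifi47, Parp9, Parp14, Dtx3l, Trim25, Samhd1, Ifi204, Lgals3bp and Trex1, were covered by 0 to 8.47 kb in the lists numbered 1 and 3 except for Trex1, which reached 9.17 kb.

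**Figure D4:**
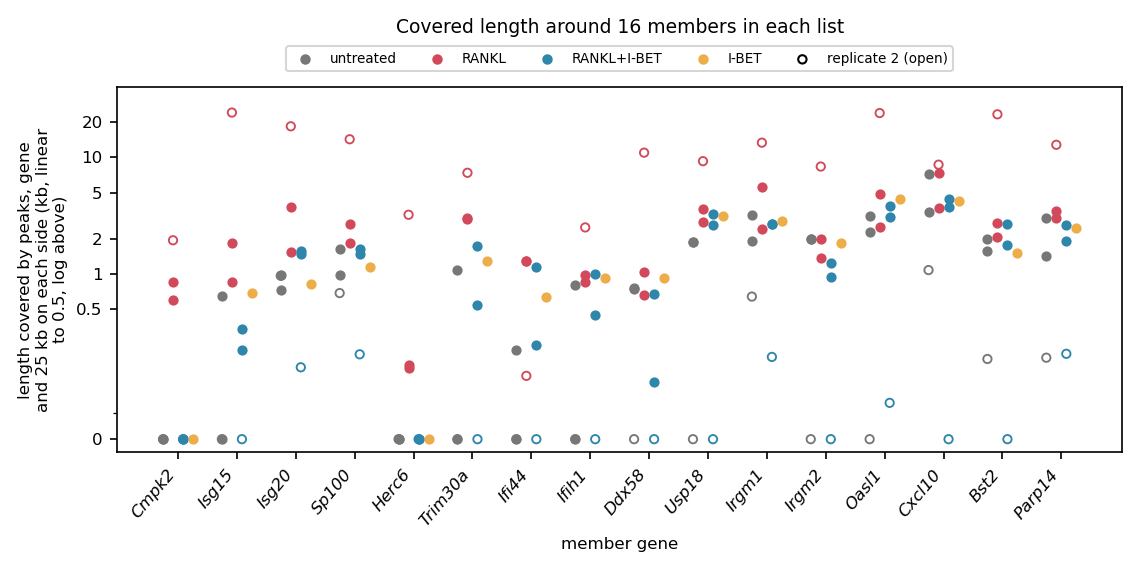
Length covered by H3K27ac peaks within the gene and 25 kb on each side, in kb (linear to 0.5, logarithmic above), for 16 members in each list, coloured by group, with replicate 2 as open points. Cmpk2 and Herc6 are at 0 outside the RANKL lists, Isg15, Isg20 and Sp100 are above the untreated range in each RANKL list, and at Irgm2 the RANKL+I-BET points lie below the RANKL points.

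Covered length set the members less apart from other genes than gene-end peaks did. All 3 RANKL lists exceeded all 3 untreated lists at 15 of 44 members, against 30.7% of all genes, a share near the background. The lists numbered 1 and 3 gave 16 members against 31.7% of genes. All 3 RANKL+I-BET lists lay below all 3 RANKL lists at 12 members, against 17.6% of genes, and lists 1 and 3 gave 13 members against 18.0%. The 12 were Cmpk2, Rsad2, Isg15, Ifit1, Ifit2, Ifi35, Igtp, Irgm2, Parp14, Trim30a, Sp100 and Herc6. With every list reduced to the length of the shortest, 0 members were higher with RANKL and 0 lower with I-BET, against 0.366% and 0.338% of genes. Both counts need RANKL list 2 to lie above every list of the other group. At that length it held a gene-end peak at 0 members and 1.74% of genes, so these 0 counts say little about the members. In lists 1 and 3 at one covered length, 8 members were higher with RANKL, Cmpk2, Rsad2, Isg20, Oasl1, Oasl2, Ifi44, Herc6 and Trex1, against 11.4% of genes. There 4 members were lower with I-BET, Cmpk2, Rsad2, Ifi44 and Herc6, against 9.59% of genes, a share near the background. Between RANKL+I-BET and untreated cells, 0 members were higher and 0 lower over all lists, against 0.283% and 0.0366% of genes. Lists 1 and 3 gave 8 members higher (20.2% of genes), which is near the background, and 3 lower, Ddx58, Igtp and Irgm2 (1.79% of genes).

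A gene-level test was run with limma on log2(covered bp + 500) after all 9 lists had been reduced to 3.44 Mb. At that length RANKL list 2 held a gene-end peak at 0 members and 1.74% of genes, against 6.28% to 17.3% of genes in the other lists. The RANKL group thus holds 1 list that is low at most genes, and its part in the results of this test was not tested. Of 44 members, 13 passed the filter of a mean of 500 bp, among 4401 genes tested. At an adjusted p under 0.05 (Benjamini-Hochberg over all genes), 0% of genes and 0 members were called for RANKL against untreated cells, 0% for RANKL+I-BET against RANKL and 0% for RANKL+I-BET against untreated cells. At an unadjusted limma p under 0.05 the counts were 177, 171 and 64 genes, with 0 members among them. Fitted on the lists numbered 1 and 3 alone, at one covered length, limma tested 30 members among 10946 genes and again called 0% of genes in each comparison. There 575, 753 and 333 genes had an unadjusted p under 0.05, with 5, 2 and 0 members among them. For RANKL against untreated cells these were Igtp, Irgm2, Trim25 and Oas3, with negative differences, and Ifi44, with a positive one. For RANKL+I-BET against RANKL they were Trim25 and Oas3, with positive differences. Untreated list 1 was uncut at this length, and RANKL lists 1 and 3 were cut. As deposited, RANKL lists 1 and 3 both lay below untreated lists 1 and 3 at Igtp and Irgm2 but not at Trim25 or Oas3. Igtp and Irgm2 share peaks in overlapping windows and are not independent. Over all 9 lists, the median log2 differences of the 13 members were -0.34, -0.12 and -0.31, beside -0.24, 0.27 and 0.00 over all genes tested. Without RANKL list 2 the members' median was 0 for RANKL against untreated cells, beside -0.10 over all genes. For RANKL+I-BET against RANKL it was then -0.31, beside 0.11. limma again called 0 genes there. Isg20 was the only one of the 4 gained members to pass the filter, with a log2 difference of 1.41 (SE 0.97, limma adjusted p = 0.870) for RANKL against untreated cells and of -0.51 (SE 0.97, limma adjusted p = 0.936) for RANKL+I-BET against RANKL.

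I-BET without RANKL is a single list and has no replicate check. It held 28 of 44 members at a gene end, as did untreated list 3, and its median covered length per member was 1.75 kb against 1.36, 0 and 1.91 kb in untreated lists 1 to 3. Cmpk2, Sp100 and Isg20 held no start peak there.

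The pathway upstream of the members was marked at its gene ends in most lists. Among 29 genes for interferon receptors, kinases, factors and sensors, 22, 19 and 25 were held untreated, 27, 27 and 26 with RANKL, 25, 8 and 23 with RANKL+I-BET and 24 with I-BET. None was gained or lost with RANKL, and Irf7, the factor that amplifies type I interferon production, was lost with I-BET against RANKL. Its covered length was 0, 0.226 and 0.314 kb in untreated lists, 1.03, 17.7 and 1.87 kb in RANKL lists, 0.885, 0 and 0.635 kb in RANKL+I-BET lists and 1.49 kb in the I-BET list. These values were higher in each RANKL list than in any untreated or RANKL+I-BET list. Of 64 other interferon-stimulated genes found, 1, Trim34a, was gained with RANKL and 0 were lost. Trim34a had 0 kb in all untreated lists, 0.932, 3.81 and 0.637 kb in RANKL lists, 0.286, 0 and 0 kb in RANKL+I-BET lists and 0.255 kb in the I-BET list. The gain of 4 of 44 members stood beside 0 of 29 and 1 of 64 genes of the same response, a difference that was not tested. These counts cannot be compared directly, since a gain needs every untreated list to lack a peak. Untreated lists already held 22, 19 and 25 of the 29 upstream genes, so few could be gained. They held 20, 10 and 28 of the 44 members and 38, 23 and 43 of the 64 other genes. The members and lists were also chosen with earlier results of these data known.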

How the data were processed

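ChIP-seq for H3K27ac covered 10 libraries of RAW264.7 cells, each with 1 deposited broad-peak list, and 10 input libraries were not analysed here. Reads were checked with FastQC, aligned with Bowtie2 to mm10 (GRCm38) and called as peaks with MACS2, per the submitters' processing notes. Versions, filters, calling settings and the use of inputs are not given in the sources used here. The columns were read from the broad-peak layout. A peak's score, fold enrichment (a ratio) and −log10 p and q are the authors' deposited values, and here they rank, filter or describe peaks inside 1 list only. Read depth is unknown, so no counting interval is given.

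Groups came from the labels. The 44 members were matched by symbol to a GRCm38 annotation, and peaks within 1 kb of a gene end and base pairs covered from 25 kb before to 25 kb after the gene were computed per list (numpy 2.4.6, pandas 2.3.3). limma 3.58.1 (R 4.3.3) fitted 3 groups, with a pseudocount of 500 bp. Named genes were every member gained or lost at its ends, every member past the limma threshold, and a written list of members with known roles, while other members are given by range or where singled out. The members and lists were chosen with earlier results of these data known. Alternatives changed the distance, window, list length, −log10 q, pseudocount, filter and libraries.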

Additional observations from a re-analysis of the deposited data

How the results depend on the processing

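Deviations from group means correlated at 0.014 to 0.251 between same-numbered libraries, all positive but not all over 0.1, and at -0.172 to 0.052 between others, and 4 of 9 correlated best with their own number, so the numbers were not taken as pairs. With the number as a replicate block, limma called 0 genes in all 3 comparisons, and 228, 230 and 84 genes had an unadjusted p under 0.05, against 177, 171 and 64 without it. limma also called 0 genes under every other alternative run.

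Of the values computed under alternatives, 228 stayed within 1.5 times the reported count or 1 SD of the reported value and 41 moved. The causes were not tested. Many of the 228 were counts of 0 in both settings, such as every limma call. The SD rule was wide, and the median with RANKL of 4.37 kb counted as staying at 2.19 kb without RANKL replicate 2. The tally is therefore no measure of stability. The members' median log2 differences in limma, which are not calls, changed sign under 1, 10 and 4 of 17 alternatives each, with ranges of -1.32 to 0.11, -0.31 to 0.62 and -0.71 to 0.27 in the order of comparisons above. Members gained with RANKL numbered 4, and 7 with 2 of 3 lists sufficing, 0 at the shortest length and 0 at −log10 q of at least 5. Leaving out a library gave 4 to 9, the 9 without untreated replicate 3 (5.57% of genes, adding Ifih1, Dhx58, Trim30a, Eif2ak2 and Adar). Lost with RANKL at one covered length were 4, beside 3.16% of genes, with untreated list 1 uncut and the RANKL lists cut. At the shortest length RANKL list 2 held 0 members, so neither a gain with RANKL nor a loss against RANKL could be called. Members lost with RANKL+I-BET against RANKL numbered 2, and 6 with 2 of 3 lists, 0 at the shortest length and 0 at −log10 q of at least 5. Leaving out a library gave 2 to 4, the 4 without RANKL replicate 1 (1.26% of genes) or 3 (1.18%). Without RANKL+I-BET replicate 1 it gave 3, beside 3.44% of genes. Gained with RANKL+I-BET against untreated cells were 0. The count was 1 with 2 of 3 lists (Isg20, 0.63% of genes) and in libraries 1 and 3 alone (Isg20, 0.73%). It was also 1 at one covered length (Ifi44, 0.97%). Leaving out a library gave 0 to 1, the 1 without untreated replicate 3 (0.37% of genes) or RANKL+I-BET replicate 2 (0.58%).

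The median covered length of members was 1.09, 4.37 and 1.11 kb as a mean over untreated, RANKL and RANKL+I-BET lists. It was 3.04, 13.1 and 3.41 kb with a 100 kb window and 0, 0.0873 and 0 kb at −log10 q of at least 5. The mean number of members with a gene-end peak fell to 4.67, 3.33 and 5.67 at the shortest length and to 1.33, 12.3 and 4.67 at −log10 q of at least 5. With RANKL it was 28.7 for the gene start alone, 18.5 in libraries 1 and 3 at one covered length, and 29.3 without peaks shared with another gene's end. Members with covered length higher with RANKL and no overlap numbered 15, and 0 at the shortest length, 4 at −log10 q of at least 5, 8 in libraries 1 and 3 at one covered length and 15 to 32 leaving out a library, with 32 without RANKL replicate 1 (44.9% of genes) and 28 without untreated replicate 3 (46.9%). Those lower with RANKL+I-BET numbered 12, and 0, 2 and 4 under the same settings and 12 to 29 leaving out a library, with 29 without RANKL replicate 1 (33.5% of genes) and 21 without RANKL+I-BET replicate 3 (24.1%). At −log10 q of at least 5, the 4 members higher and 2 lower stood beside 9.5% and 6.2% of genes, near the background. The alternatives at one covered length, those without shared peaks, and those for the mean numbers of members and for covered length without overlap were chosen after seeing the data. Counts of called members moved with list length, and the read depth behind each list is unknown. The 0 counts of covered length at the shortest length also need RANKL list 2, which held a gene-end peak at 0 members there.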

Other observations

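Mx1 and Mx2, named for antiviral dynamin-like GTPases, are listed as transcribed pseudogenes in the annotation used and so were not counted among the members. Mx2 (chr16:97536081-97560901) had a gene-end peak in every list except untreated 2 and RANKL+I-BET 2. Its covered length was 0.958, 0 and 2.19 kb in the untreated lists, 2.59, 8.90 and 2.77 kb in the RANKL lists, 1.27, 0 and 1.57 kb in the RANKL+I-BET lists and 1.17 kb in the I-BET list. Each RANKL list was above every other list, as at Isg15 and Sp100. Mx1 (chr16:97447035-97462906) had a peak only in RANKL list 2, where 1.79 kb was covered.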
